A study of Saccharomyces cerevisiae with 4 samples.

Results

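Large ribosomal subunit assembly factors are the nucleolar, nuclear and cytoplasmic proteins that fold, cut and carry the precursor of the large ribosomal subunit before it can translate. In the Saccharomyces cerevisiae RNA data analysed here, 33 such genes were chosen by name, and 33 of 33 had a row among the 7126 genes of the deposited RPKM table and passed the filter on low values. The samples were 2 libraries of a wild-type strain (WT) and 2 libraries of a strain labelled T4V, a mutant of the tail of RNA polymerase II, the CTD, whose repeats have valine at position 4 in place of threonine. RNA was poly(A) selected in all of them. The question named in the series title is how this threonine links transcription to remodelling of chromatin through Htz1, a histone variant. The sources used here give no strain background, medium, age or growth phase. They do not say whether the 2 libraries of a genotype came from separate cultures or clones, so p-values measure only the spread between these libraries, which may be technical.

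An assembly factor joins the precursor at a set stage, does its work and leaves again. RNA helicases remodel the folded RNA, GTPases check or time a step, placeholder proteins hold the seat of a ribosomal protein, and the last factors are removed in the cytoplasm. Budding yeast transcribes these genes together with those of the small subunit as the ribosome biogenesis (RiBi) regulon, which growing cells keep high and starved or stressed cells turn down. Many RiBi promoters carry a PAC element, which the repressors Dot6 and Tod6 bind, and an RRPE element, which Stb3 binds.

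Both elements were frequent upstream of the 33 genes, which had been chosen by name and not by sequence. The letters of the PAC core, GATGAG, were searched on both strands of the 250 bases before each start codon, and so were the letters of the RRPE core, AAAATTTT, which read the same on both strands. The PAC core was present upstream of 33 of 33 genes, against 17.0% of the 6001 protein-coding genes with such a window. The RRPE core was present upstream of 27, or 81.8%, against 8.6%. The longer PAC form GCGATGAG, which contains the core, was found upstream of 23 genes, or 69.7%, against 3.8%. Both cores were also frequent in related lists. PAC and RRPE shares were 77.1% and 72.9% for other large subunit factors. They were 89.3% and 76.8% for small subunit processome and snoRNP proteins, and 84.2% and 63.2% for RNA polymerase I and III subunits. Cytosolic ribosomal protein genes had 10.2% and 6.6%. Windows of this length can reach into the gene upstream.

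Stretches are shown here for the 5 genes that were called lower in T4V, SDA1, HAS1, RLP7, EBP2 and RLP24. Each held a PAC core and an RRPE core in its window, but so did 27 of the 33 genes in all. Capitals mark both cores, in either orientation, and overlapping PAC cores run together. Each stretch is read 5′ to 3′ on the strand of its gene from the R64 assembly, the release behind sacCer3.
SDA1, chrVII:982196-982241, minus strand: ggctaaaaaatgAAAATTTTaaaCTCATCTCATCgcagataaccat
HAS1, chrXIII:851675-851769, minus strand: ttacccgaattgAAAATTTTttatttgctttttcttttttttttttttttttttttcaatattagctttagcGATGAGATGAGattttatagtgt
RLP7, chrXIV:627220-627293, minus strand: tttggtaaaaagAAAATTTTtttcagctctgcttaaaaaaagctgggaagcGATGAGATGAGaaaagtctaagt
EBP2, chrXI:125622-125696, plus strand: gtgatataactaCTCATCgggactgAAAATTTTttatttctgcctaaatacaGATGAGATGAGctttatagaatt
RLP24, chrXII:166287-166358, plus strand: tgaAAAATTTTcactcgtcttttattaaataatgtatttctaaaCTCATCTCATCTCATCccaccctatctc

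PAC cores lay at similar positions in most of the group, but their orientation was mixed. A forward PAC core was present in 19 genes and a reverse one in 18. Of the 58 PAC cores, with overlapping copies counted separately, 48 began between 80 and 160 bases before the start codon. At least 1 began there in 29 genes. Positions upstream of other genes were not compared. Among the 27 genes with both cores, the RRPE core lay farther from the start codon than its nearest PAC core in 22 and nearer in 5. The gap between them ran from 2 to 52 bases, with a median of 8. The genes without the RRPE letters in the window were MAK5, NOP12, NOP4, SSF1, NOP16 and LSG1.

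**Figure D1:**
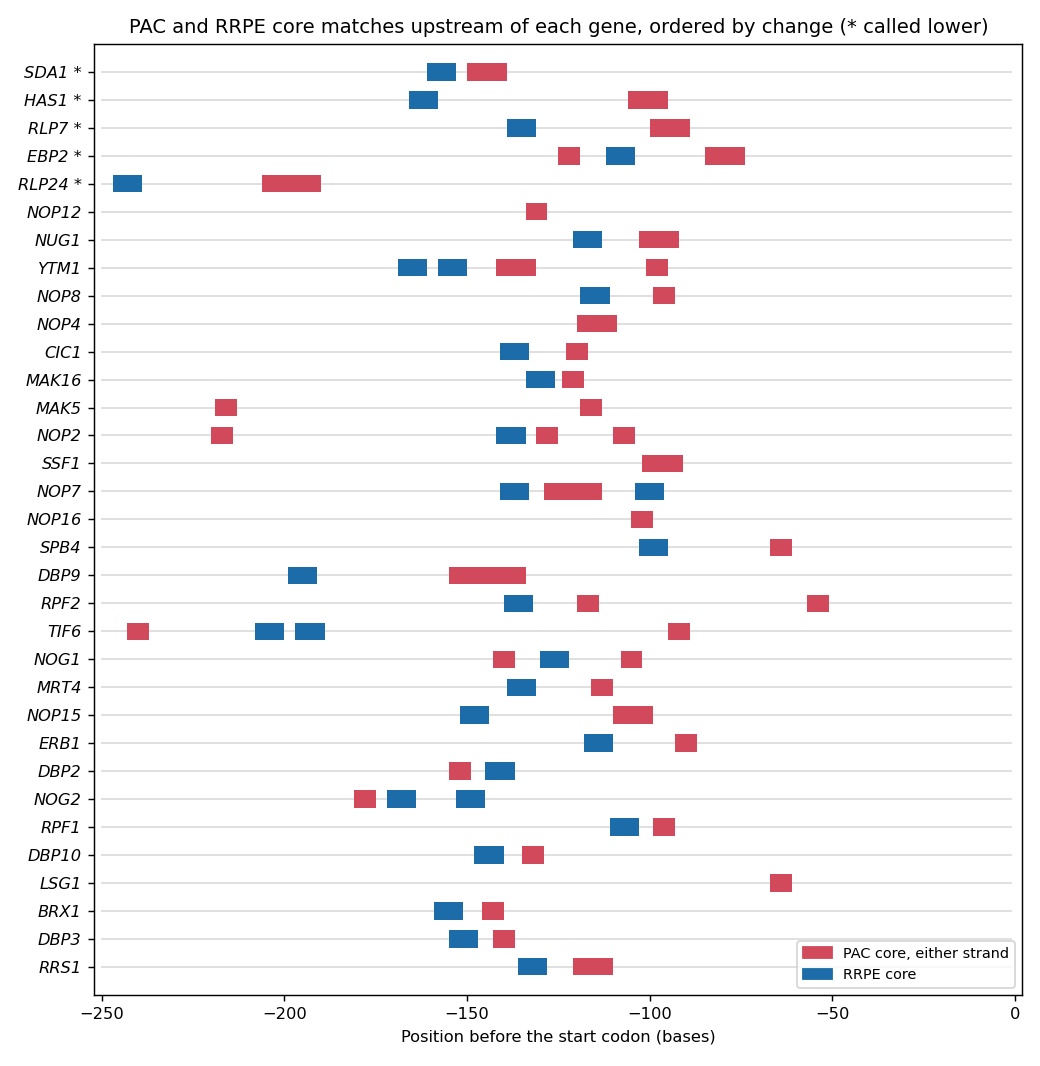
Positions of PAC cores (red, either strand) and RRPE cores (blue) in the 250 bases before the start codon of the 33 genes, ordered from the steepest fall in T4V at the top to the highest value at the bottom. A star marks the 5 genes called lower. A PAC core is present in 33 of 33 windows and an RRPE core in 27.

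In wild type the 33 genes were expressed above the typical gene. Their mean RPKM, which is scaled by gene length and library size, ran from 29.95 for the helicase gene DBP10 to 694 for RLP7, with a median of 85.9 against 42.8 over all genes tested. Of the 33, 30 lay above that genome-wide median. Each gene held between 111 and 3716 reads in a library, as recovered from the steps of the RPKM values, in libraries of 3355000 to 4261000 reads. Their combined share of all reads was 0.628% and 0.619% in wild type and 0.553% and 0.550% in T4V. Summed RPKM was 4888 and 4848 in wild type and 4317 and 4267 in T4V, so both T4V sums lay below both WT sums. Such shares come from bulk RNA, in which fewer cells of a type and less RNA per cell cannot be told apart.

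**Figure D2:**
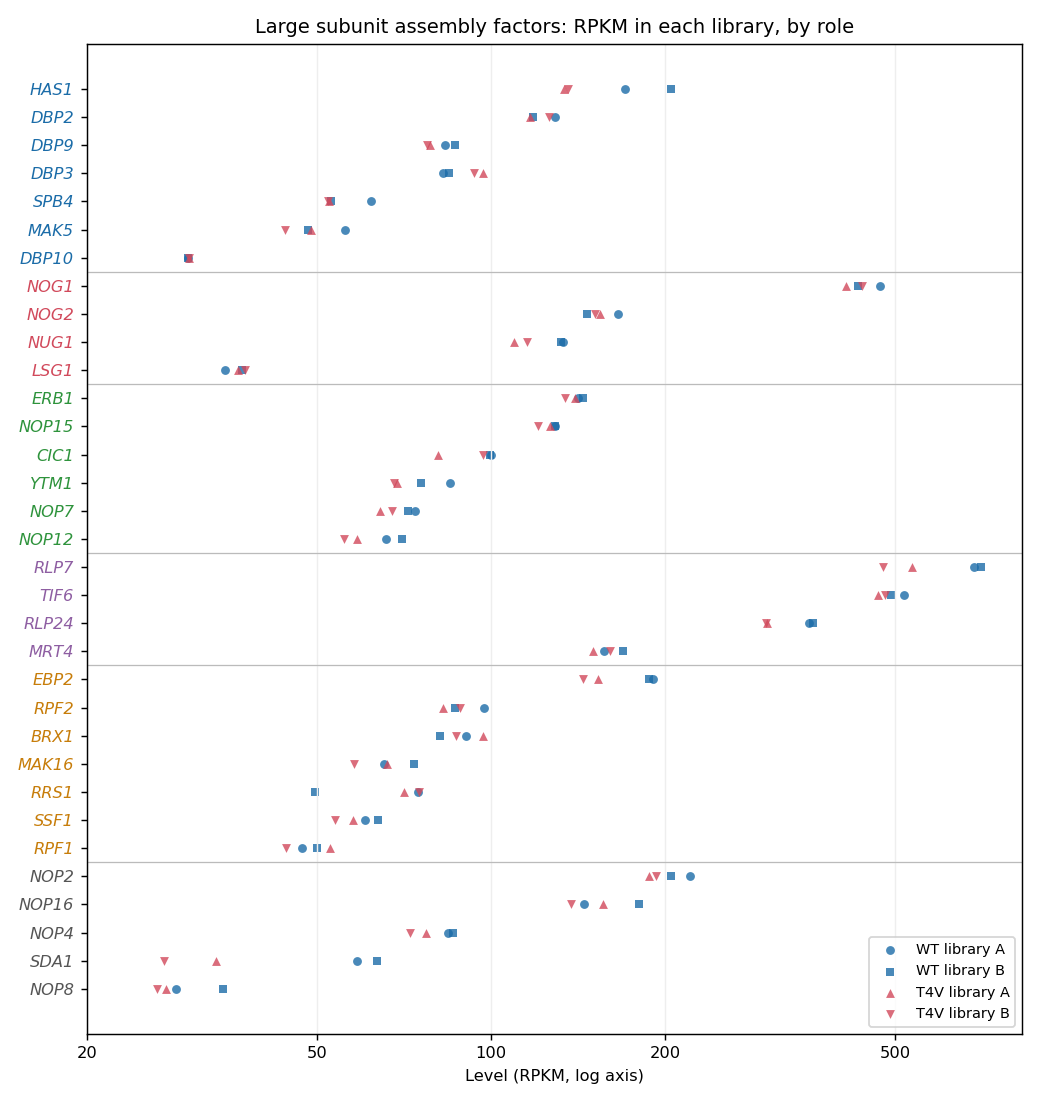
RPKM of each of the 33 genes (log axis) in WT libraries A and B (blue) and T4V libraries A and B (red), in blocks by role and by WT level within a block. For SDA1, HAS1, RLP7, EBP2 and RLP24 the red points lie clear to the left of the blue ones, and SDA1 has the widest gap.

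In T4V, 5 of the 33 genes fell and 0 rose at a limma adjusted p under 0.05. Over all 5935 genes tested, 6.25% were called lower and 11.7% higher, 17.9% in all. In this limma fit 8 members had an unadjusted p under 0.05 in the lower direction and 0 in the higher. Voom called 0 higher and 6 lower, where it called 10.4% of all genes it tested lower. At an unadjusted p under 0.05, voom had 10 members lower and 1 higher. The median log2 fold change, T4V minus WT on the log2(RPKM + 1) scale, was -0.14 for the 33 genes and 0.07 for all genes tested. Of the 33 values, 28 were below 0, against 40.6% of all genes. Both T4V libraries lay below both WT libraries in 19 of the 33 genes, against 23.4% of all genes, and above both in 2, against 38.6%. The other 12 overlapped between genotypes.

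The number of calls fell when a library was left out, over all genes as well as in the group. It fell most when that library was from T4V. Without T4V library A limma called 0 members, and 6 genes lower and 10 higher of all 5935. Without T4V library B it called 0 members, and 10 genes lower and 17 higher. At an unadjusted p under 0.05, 5 and 7 members were lower in these fits and 0 higher. Without WT library A, 3 members were called lower, with 228 genes lower in all, and without WT library B 2 members, with 245. Across the genome 65.1% of calls were in the higher direction (692 higher, 371 lower), but 50.4% after median-of-ratios scaling (511 and 503) and 50.3% after quantile normalization (453 and 448). The 5 calls and the negative median of the group held under both.

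**Figure D3:**
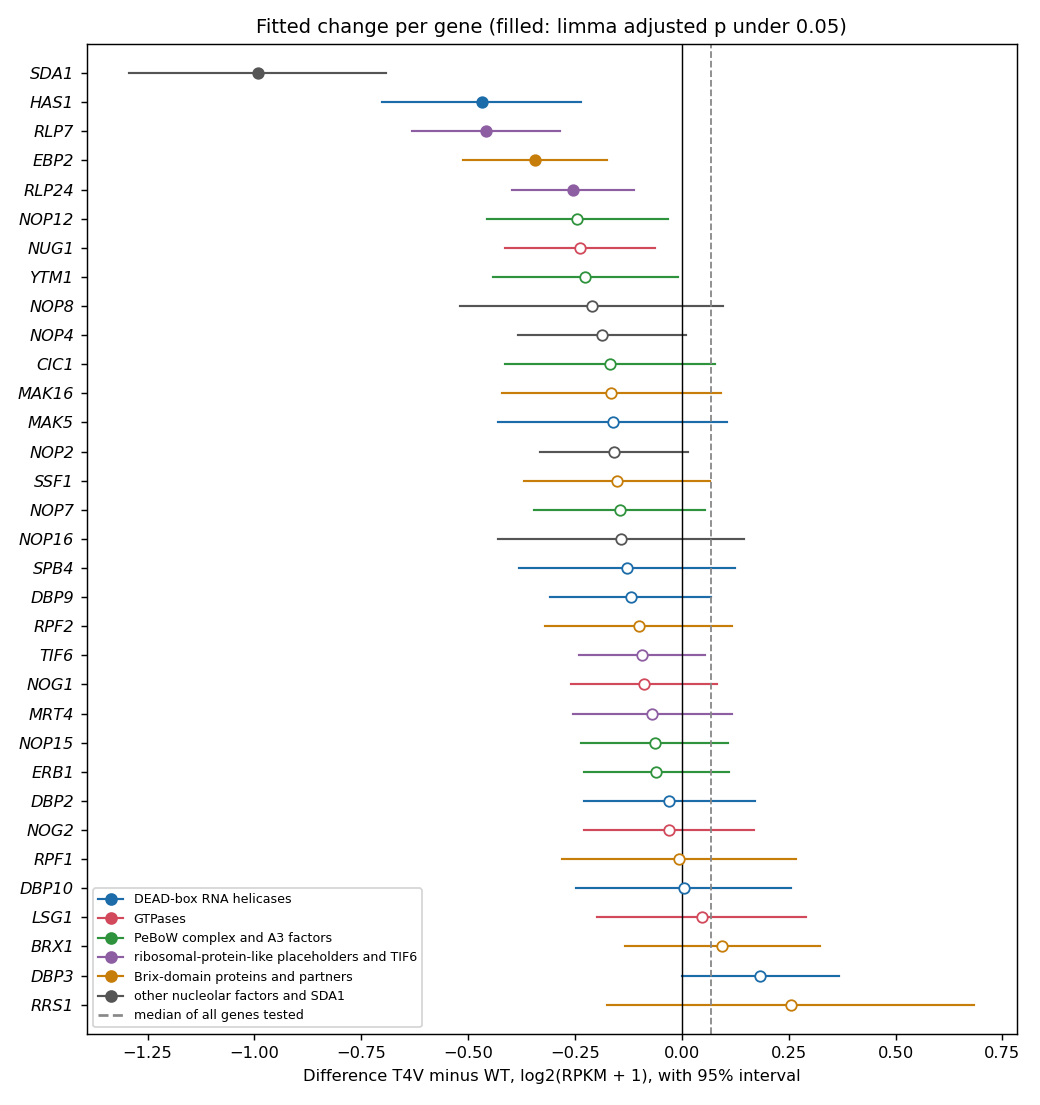
Fitted difference between T4V and WT for each of the 33 genes on the log2(RPKM + 1) scale, with 95% intervals from limma, coloured by role. Filled points passed an adjusted p of 0.05, and the dashed line is the median of all genes tested, at 0.07. The points run from -0.99 for SDA1 to 0.25 for RRS1, and 28 of 33 lie left of 0.

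SDA1 showed the steepest fall of the group. Its protein is needed for export of the large subunit precursor from the nucleus and for passage through the start of the cell cycle. SDA1 (YGR245C) lies on chromosome VII at 979765 to 982068 on the minus strand and has a single exon. It stood at 58.7 and 63.5 RPKM in the WT libraries and at 33.5 and 27.2 in the T4V libraries. Both T4V libraries lay far below both WT libraries, and the T4V mean was 50.3% lower. The log2 fold change was -0.99 ± 0.13 (SE, n = 2 each), with a limma adjusted p of 0.00422 and a 95% interval of -1.29 to -0.69. Behind these values stood 550 and 535 reads in wild type and 259 and 267 in T4V. It was the only member still called when the variance was fitted without a trend on abundance.

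The remaining nucleolar proteins of its block did not pass the test. NOP2, a methyltransferase that modifies ribosomal RNA, stood at -0.16, and the RNA-binding protein gene NOP4 at -0.19. NOP4 had 84.3 and 86.0 RPKM in the WT libraries and 77.2 and 72.3 in T4V, without overlap (SE 0.08, limma adjusted p = 0.166). NOP8 had 28.6 and 34.4 RPKM in the WT libraries and 27.4 and 26.5 in T4V, a log2 fold change of -0.21 ± 0.13 (SE) with a limma adjusted p of 0.304. NOP16 stood at -0.14, with libraries that overlapped.

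DEAD-box RNA helicases unwind or clamp RNA at the cost of ATP. In this group 1 of the 7 fell, against 6.25% of all genes tested. HAS1, a helicase used in the assembly of both subunits, is encoded at 850074 to 851591 on chromosome XIII. The gene had 171 and 205 RPKM in the WT libraries and 134 and 136 in T4V. The T4V libraries nearly coincided, while the WT libraries stood apart from each other, and the genotypes did not overlap. The log2 fold change was -0.47 ± 0.10 (SE, n = 2 each) with a limma adjusted p of 0.0207. Without WT library B, the higher of the pair, it was -0.34 with an adjusted p of 0.0556.

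The other helicase genes ran from -0.16 to 0.18, with 0 calls. DBP3, whose helicase acts early on the precursor, pointed the other way, at 82.7 and 84.4 RPKM in the WT libraries and 96.7 and 93.5 in T4V. Both T4V values were above both WT values, and the difference of 0.18 ± 0.08 (SE) had a limma adjusted p of 0.149. DBP10 was nearly flat, at 29.95 and 29.95 RPKM in the WT libraries and 30.02 and 30.08 in T4V, with a 95% interval of -0.25 to 0.26. MAK5, SPB4 and DBP9 stood at -0.16, -0.13 and -0.12. DBP2, which has an intron and also acts in the surveillance of messenger RNA, stood at -0.03.

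Placeholder proteins resemble a ribosomal protein and occupy its place or its neighbourhood until a late step. Of the 3 here 2 fell, or 2 of 4 with TIF6, where 6.25% of all genes tested were called lower. RLP7, which resembles Rpl7 and binds near the internal spacer of the precursor, lies on chromosome XIV at 626174 to 627142. It had 685 and 703 RPKM in the WT libraries and 535 and 477 in T4V, the largest absolute drop of the 33. The genotypes did not overlap, with a log2 fold change of -0.46 ± 0.07 (SE, n = 2 each) and a limma adjusted p of 0.00871.

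RLP24 holds the place that Rpl24 later takes and lies on chromosome XII at 166537 to 167136. It had 354 and 360.3 RPKM in the WT libraries and 300.0 and 299 in T4V. The libraries of each genotype were close together and the genotypes did not overlap, with a log2 fold change of -0.25 ± 0.06 (SE, n = 2 each) and a limma adjusted p of 0.0313. With 1 library left out the value hardly moved, at -0.27 to -0.24, but the limma adjusted p of 0.0725 to 0.170 no longer passed. MRT4, the placeholder for the stalk protein P0, had overlapping libraries and a value of -0.07. TIF6, the factor that keeps the subunits from joining too early, stood at -0.09 with a 95% interval of -0.24 to 0.05.

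The ribosomal proteins whose seats are held gave mixed values in the same fit. RPL7A and RPL24B fell, by 0.36 and 0.50, with limma adjusted p of 0.0210 and 0.00809. Their copies RPL7B and RPL24A stood at -0.12 and 0.03, and RPP0, which encodes P0, at -0.11, none of them called. Reads of such near-identical copies may be split wrongly between them. Among enzymes that remove placeholders in the cytoplasm, YVH1, which frees Mrt4, fell by 0.30 (adjusted p = 0.0401), and AFG2, which frees Rlp24, stood at -0.21 (limma adjusted p = 0.279).

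Brix-domain proteins bind the precursor in fixed pairs with partner proteins. In this block 1 of the 7 genes fell, against 6.25% of all genes tested. EBP2, the partner of Brx1, lies on chromosome XI at 125759 to 127042. It had 190.1 and 187 RPKM in the WT libraries and 153 and 144 in T4V. All T4V values were lower, with a log2 fold change of -0.34 ± 0.07 (SE, n = 2 each) and a limma adjusted p of 0.0197. With 1 library left out the value was -0.39 to -0.30, with a limma adjusted p of 0.0522 to 0.156.

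Values within the pairs are set side by side here, and differences within a pair were not tested. BRX1 stood at 0.10 with overlapping libraries, beside -0.34 for EBP2. RRS1, the partner of Rpf2 in bringing the smallest ribosomal RNA into the particle, had 74.7 and 49.6 RPKM in the WT libraries and 70.6 and 75.2 in T4V. WT library B stood apart with 111 reads, the lowest count of any member, and the value of 0.25 ± 0.18 (SE) had a limma adjusted p of 0.370. Without WT library A it was 0.55 and was called higher, and without WT library B it was -0.04. RPF2 stood at -0.10, and the pair of RPF1 and MAK16 at -0.01 and -0.17.

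SSF1 stood at -0.15 and its near-identical copy SSF2 at -0.10, neither of them called. The coding sequences matched at 92.1% of bases, and 146 of the 1327 36-base stretches of SSF1 occur elsewhere in the genome, so a part of their reads may be shared. None of the other 32 members had such a stretch in common with another place.

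The 6 genes around the Nop7 complex, which is needed for removal of a spacer from the precursor, all had values below 0, against 40.6% of all genes. All 6 also had both T4V libraries below both WT libraries, against 23.4%. By limma 0 of them were called, although the unadjusted p of 2 was under 0.05. NOP12, an RNA-binding protein gene, had 65.9 and 70.2 RPKM in the WT libraries and 58.7 and 55.8 in T4V, a difference of -0.24 ± 0.09 (SE) with a limma adjusted p of 0.109. YTM1, a subunit of the complex, had 84.8 and 75.8 RPKM in the WT libraries and 68.7 and 68.1 in T4V, a difference of -0.23 ± 0.09 (SE) with a limma adjusted p of 0.136. Its other subunits NOP7 and ERB1 stood at -0.15 and -0.06, and the spacer-binding proteins CIC1 and NOP15 at -0.17 and -0.06. For NOP12 and YTM1, as for NUG1, the unadjusted 95% interval lay wholly below 0.

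None of the 4 GTPase genes was called by limma. NUG1, a nuclear GTPase, came closest, with 133 and 132 RPKM in the WT libraries and 109 and 115 in T4V. Its libraries did not overlap, and the difference of -0.24 ± 0.07 (SE) had a limma adjusted p of 0.0696. NUG1 passed with voom, at 0.0249, and under each of the 3 other scalings, at 0.0361 to 0.0468. NOG1, the most abundant of the 4 at 451 RPKM in wild type, stood at -0.09, and NOG2, whose intron holds a small nucleolar RNA gene, at -0.03. LSG1, which acts last and in the cytoplasm, stood at 0.05, with a 95% interval of -0.20 to 0.29. Over the 28 members that were not called, the 95% interval reached on median 0.21 to either side of the value, and from 0.147 at the narrowest to 0.43 at the widest.

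Most other factors of the same assembly line, taken from a list of 48 genes, also had values below 0. That list, like the members, was chosen with earlier results of these data known. It is therefore no independent support for the direction of the group. Of the 48, 4, or 8.33%, fell and 0 rose, against 6.25% and 11.7% of all genes tested. Their median was -0.12, and 38 values, or 79.2%, were below 0, against 40.6% of all genes. JJJ1, which helps clear a factor from the cytoplasmic particle, went from 31.5 ± 1.66 to 21.0 ± 1.23 RPKM (SD, n = 2 each). RRP14, whose protein works beside Ssf1, went from 101 ± 3.88 to 68.4 ± 0.829, and NSA1 from 86.4 ± 5.75 to 59.7 ± 3.10. Their log2 fold changes were -0.57, -0.55 and -0.53, with limma adjusted p of 0.0214, 0.00647 and 0.0124, and YVH1 was the last of the 4.

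Neighbouring parts of ribosome production are given side by side without a test of the lists. Of 56 small subunit processome and snoRNP protein genes 4, or 7.14%, fell, against 6.25% of all genes tested. Their median was -0.11, with the steepest falls in NOC4 at -0.63 and LTV1 at -0.51. Of 137 cytosolic ribosomal protein genes 17, or 12.41%, fell, with a median of -0.12. Of 19 genes for RNA polymerase I and III subunits, 0 fell and 1, RPC11, rose by 0.67, with a median of -0.02. Of 10 regulators of these promoters, 9 could be tested and 0 were called. SFP1, an activator, stood at 0.05, and the repressor genes DOT6, TOD6 and STB3 at -0.20, -0.11 and 0.10.

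Listed genes of nutrient and stress responses moved with the same contrast. Their lists were chosen with earlier results of these data known, so the counts do not describe all genes of such responses. Of 30 general stress genes 20 rose, with a median of 0.43, and 15 of 15 phosphate genes rose, with a median of 2.51. Over all genes tested, 11.7% were called higher. The summed RPKM of the stress list was 4289 and 4068 in wild type and 6049 and 6128 in T4V. The part of the stress and phosphate responses in the values of the assembly factors was not tested. RPO21, the gene of the altered subunit, stood at 51.6 and 53.4 RPKM in the WT libraries and 50.8 and 54.1 in T4V, and RPKM cannot show its base changes. All libraries had the a-type mating genes STE2 and MFA2, with STE2 at 141 to 161 RPKM, and MFA1, AGA2 and BAR1 were higher in T4V. The 4 alpha-type genes summed to 13.1 and 14.8 RPKM in wild type and 15.9 and 17.1 in T4V, most of it from SAG1 at 11.1 to 13.5, with MF(ALPHA)2 listed at 0 in 3 of the 4 libraries.

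**Figure D4:**
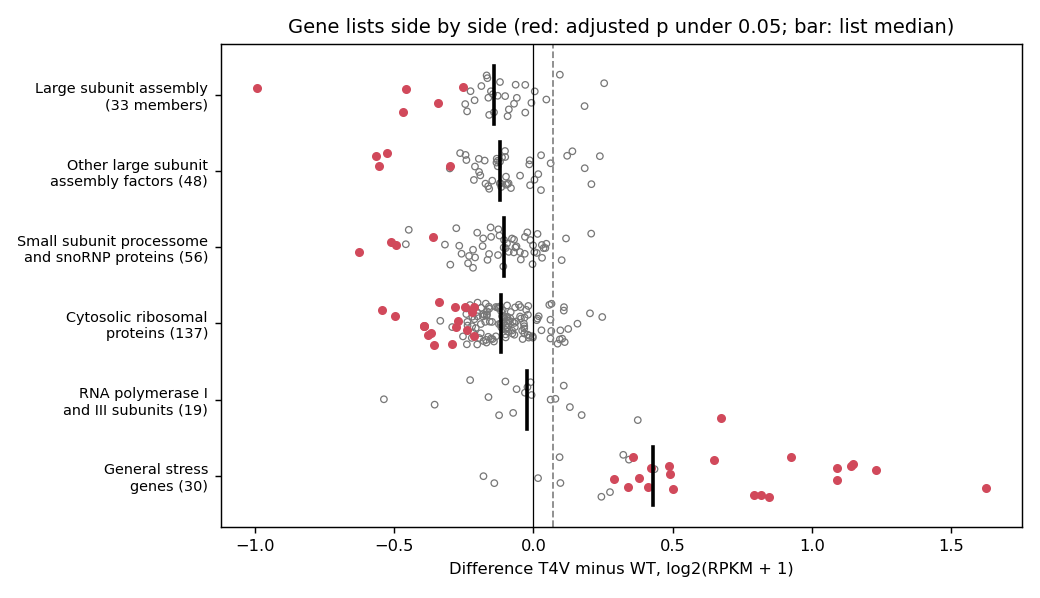
Differences between T4V and WT on the log2(RPKM + 1) scale for the 33 genes and for 5 other gene lists, with the number of genes tested in brackets. Each point is a gene, red points passed a limma adjusted p of 0.05, black bars are list medians and the dashed line is the median of all genes. The 4 lists of ribosome assembly and ribosomal proteins have medians between -0.14 and -0.11, and the stress list one of 0.43.

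The arrangement of the PAC cores varied among the 33 genes. A tandem PAC, in which 2 cores overlap as GATGAGATGAG, was looked at after the values were seen. It occurred upstream of 13 members, among them all 5 that fell, and in the other 20 members, which lacked it, 0 fell. Medians were -0.23 with the tandem and -0.09 without it. Outside the 33 genes, 60 tested genes carried the tandem, of which 4, or 6.67%, fell, against 6.34% of those without it. Their median was -0.09, against 0.07. These genes include some of the related lists. Among the other large subunit factors, 0 of 6 with the tandem fell and 4 of 42 without it, with medians of -0.1 and -0.12. Among small subunit processome and snoRNP proteins, 2 of 14 and 2 of 42 fell, with medians of -0.13 and -0.10. Genes outside the group with both cores numbered 217 among those tested, of which 19, or 8.76%, fell and 10 rose, with a median of -0.06.

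The 33 genes were spread over 13 chromosomes, with no more than 5 on any. Of 58 tested neighbours that are no members, 5 fell and 5 rose, with a median of 0.11. Among all genes tested, 6.25% fell and 11.7% rose. RLP24 shares an intergenic region of 453 bases with PAM18, a subunit gene of the mitochondrial import motor, which is read in the opposite direction and fell by 1.00 (limma adjusted p = 0.000615), from 578 to 289 RPKM. LSC2, a succinyl-CoA ligase gene that lies 445 bases downstream of SDA1 on the same strand, rose by 0.79 (limma adjusted p = 0.00216). The neighbours of HAS1, RLP7 and EBP2 were not called, at 0.03 to 0.46.

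Divergent neighbours of genes that were not called were picked out after their values were seen. GCD10, a tRNA methyltransferase gene read away from NOP2 across 327 bases, had a mean of 93.9 RPKM in wild type against 20.7 in T4V, beside 213 and 190.2 for NOP2. SLM3, a mitochondrial tRNA modification gene read away from DBP10 across 304 bases, had means of 31.4 and 12.8 RPKM, beside 29.95 and 30.05 for DBP10. Of the 14 divergent neighbours tested, 4 fell and 0 rose, where 6.25% of all genes tested were called lower and 11.7% higher. The fourth was MDM20 beside BRX1, at -0.38.

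**Figure D5:**
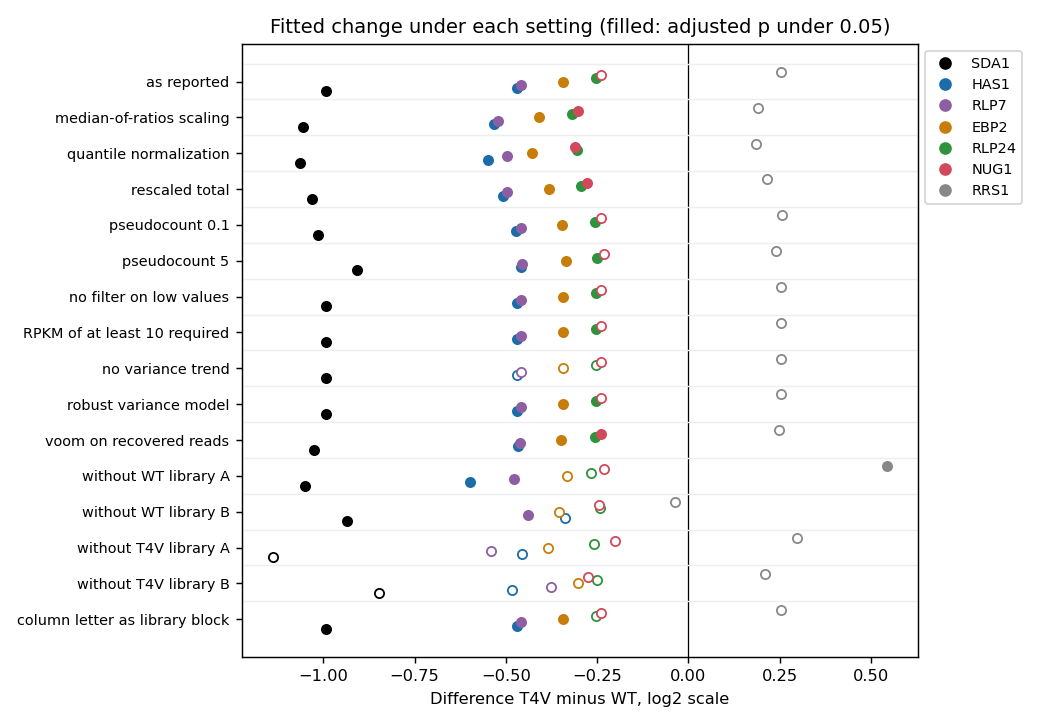
Fitted difference between T4V and WT (log2 scale) for 7 genes under each processing setting, with filled points where the adjusted p was under 0.05. SDA1 stays between -1.14 and -0.85. With either T4V library left out no point is filled, and few genes were called over the whole genome, and RRS1 moves from 0.55 to -0.04 depending on which WT library is kept.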

How the data were processed

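Poly(A) RNA of 2 WT and 2 T4V libraries was measured by strand-keeping RNA-seq on an Illumina Genome Analyzer IIx, per the labels' protocols. Reads were placed with Bowtie2 on sacCer3, per the submitters' processing notes. The program that counted reads, its annotation and its use of strand are not given in the sources used here. What the authors deposited is RPKM, reads scaled by gene length and library size, for 7126 genes. Column names gave the genotype and a letter, A or B, but not the replicate numbers of the labels, so libraries are called by their letters.

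Reads were recovered from the RPKM steps and RefSeq R64 exonic lengths (6048 genes matched), and 99.8% of genes with up to 60 reads came within 0.1 of a whole number in each library. The library sizes were 4068000 and 3655000 reads (WT) and 3355000 and 4261000 (T4V). Reads amplified by PCR and lacking molecular identifiers do not stand for independent molecules, so limits from read numbers cover counting error only.

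The test was limma 3.58.1 in R 4.3.3 on log2(RPKM + 1) with a variance trend, 2-sided, for genes that reached 1 RPKM in 2 or more libraries. Benjamini-Hochberg adjustment ran over all 5935 genes tested, with calls under 0.05. The fit was tested on simulated data. Fold changes on this scale understate those of low genes. Upstream windows were read from the R64 genome with Biopython 1.88. Python 3.11.15 and pandas 2.3.3 were used for the rest.

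The members and lists were chosen with earlier results of these data known. Values in every library are given for each called member and for the 12 members with the largest absolute change. From other lists, called genes are named, up to 10 for the other large subunit factors and 2 for the small subunit, with SSF2, SFP1, DOT6, TOD6 and STB3 in any case. The ribosomal protein genes whose seats are held, and AFG2, were named for their roles.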

Additional observations from a re-analysis of the deposited data

How the results depend on the processing

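Alternatives changed the scaling, the pseudocount, the filter, the variance model and the count model, and left out each library in turn. Of 495 values of single members under all alternatives, 457 kept their direction and side of the threshold. The 5 calls kept both in every alternative of scaling, pseudocount and filter, with the robust variance model and with voom. Without the variance trend 1 member and 1 of the other large subunit factors were called lower. Leaving out 1 library lowered the calls over all genes from 371 lower and 692 higher to 228 and 483 (WT library A), 245 and 501 (WT library B), 6 and 10 (T4V library A) and 10 and 17 (T4V library B). These fits gave 0 to 3 members called lower and 0 to 1 called higher, 0 to 2 of the other large subunit factors called lower, and medians of -0.130 to -0.119 for the members and -0.149 to -0.086 for the other factors. Voom called 1 of the other factors higher. The median of the members was -0.21 after median-of-ratios scaling, -0.21 after quantile normalization and -0.18 after the rescaled total, and that of the other factors was -0.18, -0.19 and -0.16. These scalings moved the median of all genes from 0.07 to 0.01, -0.02 and 0.03. Relative to that median, members stood at -0.21, -0.20 and -0.21 against -0.21 as reported.

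Values of 7 members changed sign. DBP10 stood at -0.057, -0.073 and -0.033 under these scalings in the same order, and LSG1 at -0.016 and -0.013 under the first pair. When each library was left out in turn, DBP2 ran from -0.092 (without WT library B) to 0.034 (without WT library A) and was at 0.025 without T4V library A. Over the same 4 fits NOG2 ran from -0.119 to 0.060, LSG1 from -0.002 to 0.095, RPF1 from -0.132 to 0.118 (0.035 without WT library B) and NOP16 from -0.299 to 0.016. RRS1 ran from -0.036 without WT library B to 0.545 without WT library A, and only that last value passed the threshold. SDA1 was at -1.14 and -0.85 without T4V library A and B, with limma adjusted p of 0.0647 and 0.0832. Fits without 1 library assume that the lone library varies like the others. The cause of these changes was not tested. The column names share the letters A and B between genotypes but none of the replicate numbers of the labels. The differences between A and B were not correlated between the genotypes (r = -0.015 across 5935 genes, which are not independent), so the letters were not taken to pair the libraries. A limma fit with the letter as a replicate block, chosen after seeing the data, called 4 members lower, 0 higher, and 393 genes lower and 744 higher in all. RLP24 was the call lost, with an adjusted p of 0.0582. Counts of 111 to 3716 reads per member and 2 libraries per genotype limit what small differences can show.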
